A study of Mus musculus with 10 samples.

Results

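Neural crest cells leave the dorsal neural tube, migrate into the pharyngeal arches and there form most of the mesenchyme of the face and neck. A set of 32 genes that mark or regulate these cells was followed in mouse embryos with and without Fbln1, the gene of the secreted matrix protein fibulin-1. The set comprised regulators of crest specification and migration, homeobox factors of arch mesenchyme, nuclear receptors with forkhead and odd-skipped factors, surface receptors and cadherins. Of these genes, 30 had at least 1 probe set under their symbol in the platform annotation, with 53 probe sets in all, among 12393 genes named on the array. Sox8 and Alx1 were not listed there and were not analysed here. Each gene was read on its brightest probe set by the mean over all 10 arrays. The label was checked against the genes themselves, since the set mixes genes of migrating crest cells with genes of settled mesenchyme.

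Total RNA came from hindbrain with the adjoining pharyngeal arches 1 to 4, dissected at E10.5, and each sample was hybridised to 1 Affymetrix array. The Fbln1-null group (n = 5, replicates 3, 4, 5, 7 and 8) was homozygous for a gene trap insertion in Fbln1. The wildtype group (n = 5, replicates 1 to 5) lacked it, and the embryos came from matings of heterozygous carriers. The series asks how fibulin-1 bears on signalling by FGF8. The insertion is present in every cell of the embryo, and neural, mesenchymal, epithelial and blood cells share each sample, so fewer cells of a type and less RNA per cell cannot be told apart. No label ties samples to litters, and p-values rest on the spread among the 10 samples alone.

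In textbook accounts Sox10, Foxd3, the Snail factors and Ets1 act as crest cells form and leave the neural tube. Twist1, Prrx1 and Pdgfra mark the mesenchyme that crest cells become in the arches, and Sox9 directs part of it towards cartilage. Surface ectoderm and endoderm pattern this mesenchyme with secreted signals, among them FGF8, to which Lhx6 and Lhx8 of the first arch respond.

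Each functional group had genes with signal over the filter, and Sox10 and Foxd3, markers of early and migrating crest, were under it. A gene counted as measured if its probe set was over log2 4 on 5 or more of the 10 arrays, irrespective of genotype. This left 18 genes, of which 15 were over 4 on all 10 arrays. The 12 genes under the filter were Sox10, Foxd3, Snai1, Sox5, Alx4, Barx1, Gsc, Lhx6, Pitx1, Osr1, Osr2 and Cdh6. Of these, 8 had a mean within 0.3 of the lowest value in the table, log2 2.22, where the authors' background correction places probe sets without signal. A dim probe set does not show that its gene is silent. For Prrx1, a dim probe set had means of 2.41 in null and 2.35 in wildtype tissue, while the brightest had 10.1 in both. For Pdgfra the dim probe set had 2.63 and 2.87, against 9.80 and 9.60 on the brightest.

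**Figure D1:**
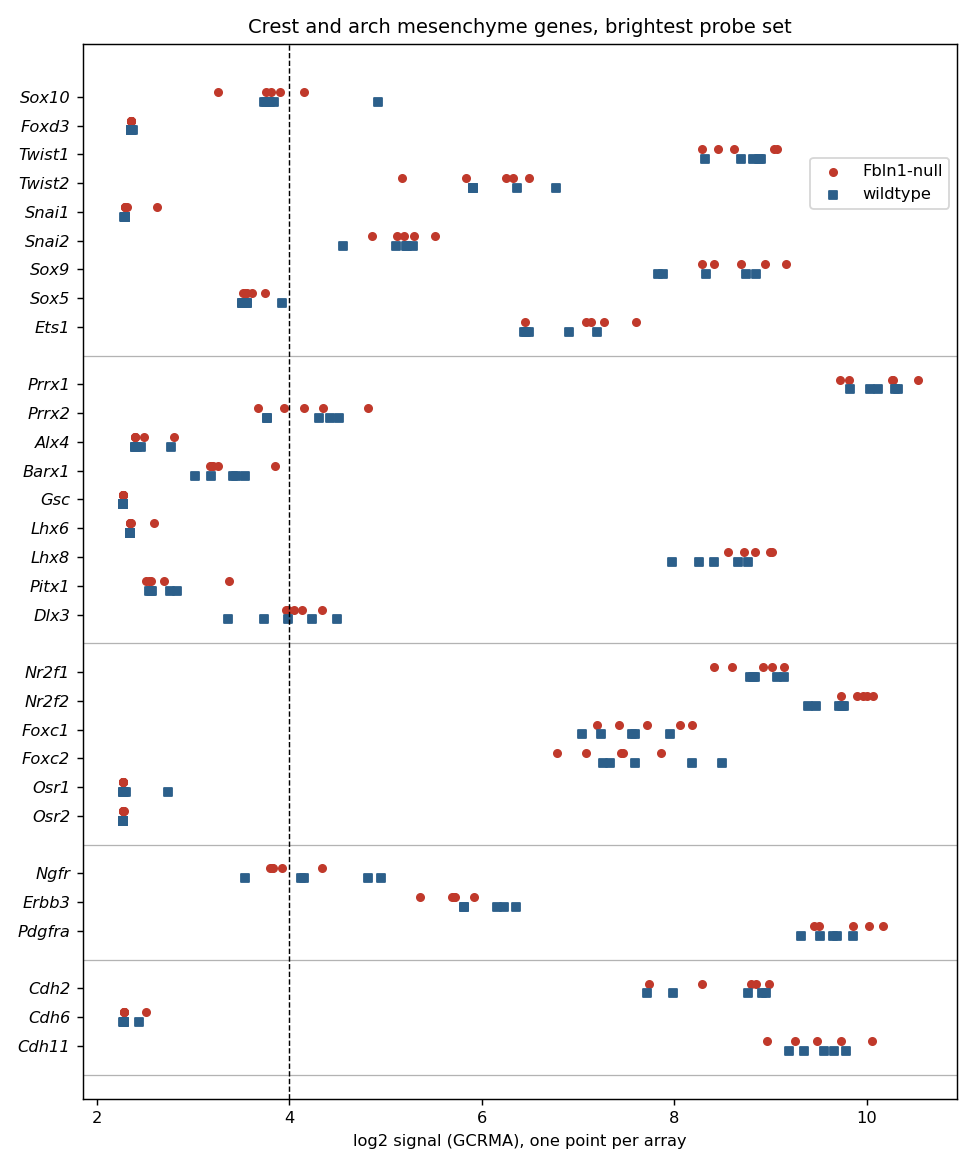
Log2 signal (horizontal axis) of 30 crest and arch mesenchyme genes on 10 arrays, with the Fbln1-null points (circles) above the wildtype points (squares) in each row. The dashed line is the filter at log2 4, and grey lines separate the functional groups. Twist1, Prrx1, Nr2f2, Pdgfra and Cdh11 lie over log2 8 on every array, and Foxd3, Gsc, Osr2 and others lie at the floor in both genotypes.

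Genes of early or migrating crest over the filter included Snai2, Ets1, Erbb3 and Ngfr, and 7 homeobox and odd-skipped factors of mesenchyme were among the genes under it. Sox10 is the SoxE factor of migrating crest, glia and pigment cells. Its brightest probe set read 3.90, 4.16, 3.76, 3.26 and 3.81 in null replicates 3, 4, 5, 7 and 8, against 4.92, 3.85, 3.74, 3.81 and 3.76 in wildtype replicates 1 to 5. Only null replicate 4 and wildtype replicate 1 were over 4, so Sox10 had no call. Foxd3, an early crest specifier, lay between 2.35 and 2.36 in null arrays and between 2.35 and 2.38 in wildtype arrays. Differences of genes under the filter ran from -0.24 to 0.08 on the log2 scale, a range that the floor compresses, and they are not read further.

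The targeted gene bore out the labels. The brighter Fbln1 probe set, itself under the filter, read 2.52 to 2.85 in the 5 null arrays, against 3.83 to 5.11 in the 5 wildtype arrays, with no overlap. Array medians lay between 3.20 and 3.29 in both genotypes together, and 9618 to 9943 probe sets per array were over log2 4. Any pair of arrays correlated at 0.985 to 0.996 across probe sets, and 0 pairs held identical values.

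No crest or arch mesenchyme gene passed the test between genotypes. Among the 18 measured genes, 10 (55.6%) had a higher and 8 a lower mean in null tissue, against 43.1% of all genes with a higher mean, and 0 passed an adjusted p of 0.05 (limma, Benjamini-Hochberg over 9801 probe sets). Over all 5910 genes tested 2 passed, both lower, or 0.0338% of genes and 0.0204% of probe sets. The smallest adjusted p of a crest or arch gene was 0.327. At an unadjusted p under 0.05 stood 3 of the 18 (16.7%): Nr2f2 and Lhx8 with a higher and Erbb3 with a lower mean. The background at this threshold was 12.8% of all genes, with 3.84% higher and 8.98% lower, and the share in the set lies near it. Expression of 0 of the 18 genes separated the genotypes without overlap, against 2.88% of all genes.

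The 18 log2 fold changes ran from -0.44 for Foxc2 to 0.41 for Ets1, with a median of 0.05, against -0.04 over all genes tested. Of these, 10 were under 0.2 in size. For 17 genes the 95% interval lay within 1 log2 unit of 0, that is within a doubling or halving. Foxc2 was the exception, with an interval from -1.01 to 0.13. On simulated arrays with the observed spread over 9801 probe sets, the test recovered 76.3% of changes of log2 1 and 21.8% of changes of log2 0.5. The simulation changed many more probe sets than the test called in these data, which eases the adjusted threshold. It also drew probe sets independently, so these shares can overstate recovery in these data. All 18 fold changes were under 0.5 in size. With quantile normalization or median centring of the arrays, 13 of the 18 had a higher mean in null tissue, with medians of 0.09 and 0.10. Median centring moves all genes of an array together. The share of all genes with a higher mean was not computed after either scaling, so this count is not read as particular to the set.

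**Figure D2:**
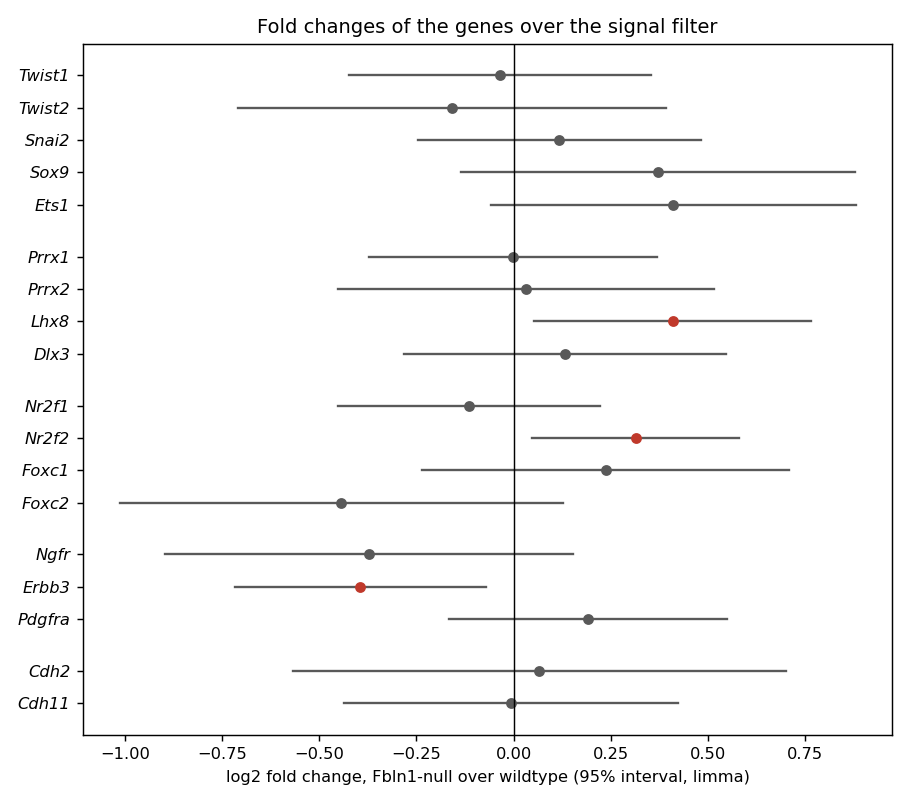
Log2 fold change of Fbln1-null over wildtype for the 18 genes over the filter, ordered by functional group, with 95% intervals from limma (n = 5 arrays per genotype). Red points mark Lhx8, Nr2f2 and Erbb3, the 3 genes at an unadjusted p under 0.05, and 0 genes passed after adjustment.

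Regulators of crest specification and migration were represented by 5 measured genes of 9 listed. Of these, 3 had a higher and 2 a lower mean in null tissue, with a median log2 fold change of 0.12, and 0 passed adjustment. Ets1, an ETS factor of delaminating crest that endothelial cells also express, had the smallest p. Its log2 signal was 7.61, 7.09, 7.14, 7.27 and 6.45 in null replicates 3, 4, 5, 7 and 8, against 6.91, 7.20, 6.45, 6.49 and 6.44 in wildtype replicates 1 to 5. Null replicate 8 sat with the 3 lowest wildtype arrays, and wildtype replicate 2 sat among the null arrays. The means were 7.11 ± 0.42 in null and 6.70 ± 0.34 in wildtype tissue (SD, n = 5 each), a difference of 0.41 on the log2 scale (SE 0.22, adjusted p = 0.472 in limma). Without null replicate 8 the log2 fold change was 0.58, and without null replicate 3 it was 0.29. It was 0.19 with the actin probe ratio as a covariate and 0.65 (unadjusted p = 0.0161 in limma) without wildtype replicates 1 and 2, its highest wildtype arrays. The probe set is of a type that can match transcripts of several genes, and the other 3 Ets1 probe sets were under the filter. Among the endothelial markers listed, 4 of 8 were over the filter, and Pecam1, Cdh5, Tie1 and Esam were under it. The summed log2 signal of those 4 was 23.3 to 25.2 in null and 23.7 to 25.4 in wildtype arrays, and its part in the Ets1 values was not tested.

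Sox9, the regulator of cartilage fate, had means of 8.70 ± 0.36 in null and 8.33 ± 0.47 in wildtype tissue (SD, n = 5 each). Wildtype replicates 4 and 5, at 7.88 and 7.83, lay below all other arrays, and the remaining 8 arrays of both genotypes spanned 8.28 to 9.16. The log2 fold change was 0.37 (SE 0.23, limma adjusted p = 0.556). Snai2, a zinc-finger repressor of epithelial genes in migrating crest, had 0.12 (SE 0.17).

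Twist1, a basic helix-loop-helix factor that cranial mesenchyme needs, differed by -0.03 (95% interval -0.42 to 0.35). Its paralog Twist2 had a log2 fold change of -0.16 (SE 0.25), with null replicate 7 at 5.17 and the other null arrays at 5.84 to 6.49, against 5.91 to 6.77 in wildtype arrays. Across the 10 arrays Twist1 and Twist2 had a Pearson r of 0.79 (permutation p = 0.00475, adjusted p = 0.0475 over 10 relations) and a Spearman rho of 0.81 (permutation p = 0.00674, adjusted p = 0.0674). The 10 relations were picked after the values were seen, so these p-values are descriptive only. In wildtype replicates 3, 4 and 5 Twist2 was 5.91 throughout, while Twist1 was 8.32 to 8.82. The r over all arrays was 0.79 after each genotype was centred on its mean, and 0.66 without the 2 arrays farthest from the Twist1 median. The other 9 relations, between paralogs or between probe sets of a gene, had adjusted p of 0.301 or more. Both genes were read on the same arrays, on which many of the 18 genes were high or low together, as described below.

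The RefSeq promoter windows of the Twist genes, from 250 bases before to 50 after the start (GRCm38.p6), are shown because these were the paralogs whose signals correlated past the threshold by Pearson's r, though not by Spearman's rho. Capitals mark GC boxes, searched as GGGCGG on both strands. Twist1 lies at chr12:33957421-33957720 and Twist2 at chr1:91801211-91801510, both on the plus strand.
Twist1: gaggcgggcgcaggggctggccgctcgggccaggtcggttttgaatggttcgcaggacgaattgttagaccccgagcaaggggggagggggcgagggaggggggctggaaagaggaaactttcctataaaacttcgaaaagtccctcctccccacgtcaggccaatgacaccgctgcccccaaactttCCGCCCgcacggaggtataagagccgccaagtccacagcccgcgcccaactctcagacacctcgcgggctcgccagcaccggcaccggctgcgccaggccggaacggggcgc
Twist2: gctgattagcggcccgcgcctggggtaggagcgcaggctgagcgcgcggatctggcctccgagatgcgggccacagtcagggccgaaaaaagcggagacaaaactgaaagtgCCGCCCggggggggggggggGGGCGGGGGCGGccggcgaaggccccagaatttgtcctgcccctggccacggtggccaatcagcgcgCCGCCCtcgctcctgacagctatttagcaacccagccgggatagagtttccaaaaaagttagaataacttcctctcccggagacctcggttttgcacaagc

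Twist1 had 1 GC box and Twist2 had 4, with none overlapping, and 35.7% of all 32851 windows of 300 bases held at least 1. The E-box CANNTG, the motif of basic helix-loop-helix factors, had 0 matches in both windows and was present in 72.3% of all windows. TATAAA, searched on both strands, had 1 match in Twist1 and 0 in Twist2, against 13.6% of all windows. CG dinucleotides numbered 27 and 25, against a median of 7. These matches describe the sequence only, and the windows say nothing about binding.

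Homeobox factors of arch mesenchyme had 4 measured genes of 9 listed, 3 with a higher and 1 with a lower mean in null tissue, with 0 past adjustment. Lhx8, a LIM-homeodomain factor of the oral side of the first arch, read 8.99, 8.84, 8.72, 9.01 and 8.56 in null replicates 3, 4, 5, 7 and 8, against 8.77, 8.26, 8.41, 7.97 and 8.66 in wildtype replicates 1 to 5. The 3 highest null arrays lay above every wildtype array, and the other 2 lay inside the upper wildtype range. Means were 8.82 ± 0.19 in null and 8.42 ± 0.32 in wildtype tissue (SD, n = 5 each). The log2 fold change was 0.41 (SE 0.16, unadjusted p = 0.0275, limma adjusted p = 0.339). Wildtype replicate 4 had the lowest signal, and without it the log2 fold change was 0.30. With the actin probe ratio as a covariate it was 0.29. Lhx6, the paralog expressed beside it, was under the filter, at 2.34 to 2.60 in null and 2.34 in wildtype arrays.

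Prrx1, a paired-type homeobox factor of cranial and limb mesenchyme, had a mean of 10.1 in both genotypes, with SDs of 0.34 in null and 0.20 in wildtype tissue (n = 5 each). Its log2 fold change was -0.0008 (95% interval -0.37 to 0.37). The dimmer Prrx1 probe set over the filter had 0.07 (SE 0.25). Prrx2, its paralog, had 0.03 (SE 0.22), and Dlx3, a Distal-less factor of the lower arch, had 0.13 (SE 0.19). Both straddled the filter, Prrx2 with 3.68 to 4.82 in null and 3.77 to 4.51 in wildtype arrays and Dlx3 with 3.97 to 4.34 in null and 3.37 to 4.49 in wildtype arrays. Alx4, Barx1, Gsc and Pitx1, all homeobox factors of facial mesenchyme, were under the filter in both genotypes.

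Nuclear receptors and forkhead factors included the gene with the smallest spread within a genotype among the 18. Of 4 measured genes 2 had a higher and 2 a lower mean in null tissue, with 0 past adjustment. Nr2f2, or COUP-TFII, an orphan nuclear receptor of mesenchyme and veins, read 10.06, 9.89, 9.73, 9.96 and 9.996 in null replicates 3, 4, 5, 7 and 8, against 9.71, 9.74, 9.47, 9.76 and 9.39 in wildtype replicates 1 to 5. In 4 of 5 null arrays it was above every wildtype array, and null replicate 5 lay within the wildtype range. The means were 9.93 ± 0.13 in null and 9.61 ± 0.17 in wildtype tissue (SD, n = 5 each), a log2 fold change of 0.31 (SE 0.12, unadjusted p = 0.0243, limma adjusted p = 0.336). The other Nr2f2 probe sets over the filter had 0.24 (SE 0.20) and 0.05 (SE 0.14), in the same direction with neither at an unadjusted p under 0.05. Across arrays the Nr2f2 probe sets had Pearson r of 0.54, 0.36 and -0.34 with each other (adjusted permutation p of 0.314 or more). With its probe sets averaged, Nr2f2 had 0.20 (unadjusted p = 0.112 in limma). Nr2f1, or COUP-TFI, its paralog, had -0.11 (SE 0.16), with null replicates 5 and 8, at 8.60 and 8.41, below all wildtype arrays.

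Foxc1 and Foxc2 are forkhead factors of periocular and arch mesenchyme and of the arch arteries. Foxc2 read 7.87, 7.45, 7.46, 7.09 and 6.78 in null replicates 3, 4, 5, 7 and 8, against 8.50, 8.18, 7.59, 7.33 and 7.26 in wildtype replicates 1 to 5. Wildtype replicates 1 and 2 lay above every other array, and the remaining wildtype arrays lay within the null range. Its log2 fold change was -0.44 (SE 0.26, limma adjusted p = 0.533). Foxc1 went in opposite directions on its probe sets: 0.24 (SE 0.22) on the brighter and -0.44 (SE 0.21, limma adjusted p = 0.425) on the dimmer one. The dimmer probe set read 3.94 to 4.62 in null and 4.26 to 5.25 in wildtype arrays, close to the filter, and wildtype replicates 1 and 2 were again its highest. The Foxc1 probe sets had a Pearson r of -0.08 and a Spearman rho of 0.10 across arrays (adjusted permutation p = 0.873 and 0.787), and r was -0.18 without the 2 farthest arrays. No direction is given for Foxc1. Osr1 and Osr2, odd-skipped factors of facial and heart mesenchyme, were under the filter.

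**Figure D3:**
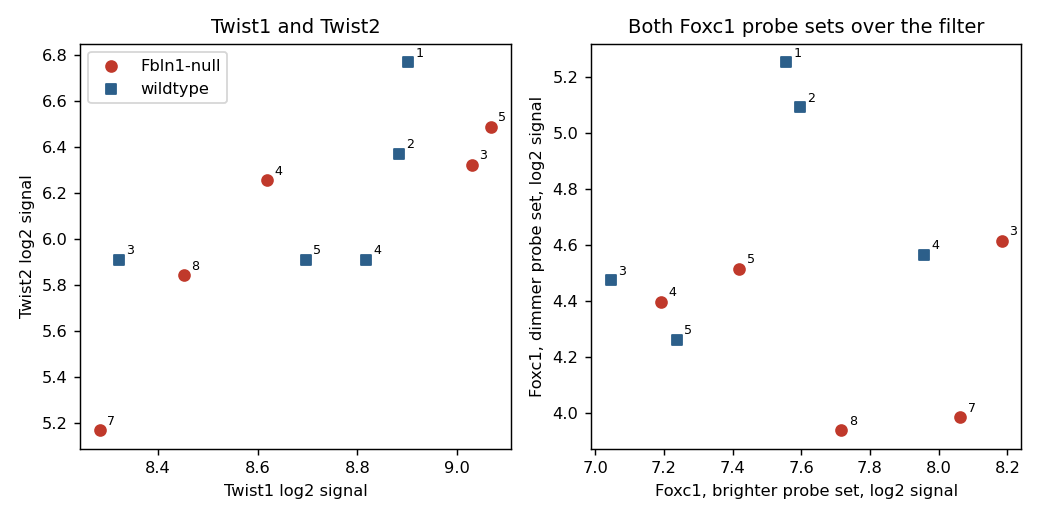
Left, Twist2 against Twist1 log2 signal, and right, the dimmer against the brighter Foxc1 probe set, with 1 point per array (circles Fbln1-null, squares wildtype, labelled by replicate number). Over the 10 arrays Pearson's r is 0.79 for the Twist genes and -0.08 for the Foxc1 probe sets.

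Among surface receptors, Erbb3 and Ngfr had lower and Pdgfra a higher mean in null tissue. Erbb3, a neuregulin receptor of migrating crest and Schwann cell precursors, had the smallest p of all 18 genes. It read 5.71, 5.73, 5.69, 5.36 and 5.92 in null replicates 3, 4, 5, 7 and 8, against 6.23, 6.35, 5.81, 5.82 and 6.16 in wildtype replicates 1 to 5. In 4 of 5 null arrays it was below every wildtype array, and null replicate 8 lay above the 2 lowest of them. Means were 5.68 ± 0.20 in null and 6.07 ± 0.25 in wildtype tissue (SD, n = 5 each), a log2 fold change of -0.39 (SE 0.15, unadjusted p = 0.0205, limma adjusted p = 0.327). Wildtype replicates 1 and 2 were its highest arrays, and without both the log2 fold change was -0.25 (unadjusted p = 0.153 in limma). Epithelia also express Erbb3. Of the listed surface ectoderm and endoderm markers, 6 of 8 were over the filter, all but Krt19 and Foxa2, with summed log2 signals of 37.8 to 40.9 in null and 36.9 to 40.8 in wildtype arrays. Their part in the Erbb3 values was not tested.

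Ngfr, the p75 neurotrophin receptor used to sort crest cells, read 4.34, 3.83, 3.93, 3.83 and 3.80 in null replicates 3, 4, 5, 7 and 8, against 4.95, 4.82, 4.16, 3.54 and 4.12 in wildtype replicates 1 to 5. Wildtype replicates 1 and 2 were its highest arrays, as for Foxc2, and wildtype replicate 4 its lowest. The difference, -0.37 on the log2 scale (SE 0.24, adjusted p = 0.570 in limma), is compressed by the floor. Pdgfra, the receptor through which PDGF ligands act on arch mesenchyme, had 0.19 (SE 0.17), with means of 9.80 ± 0.32 in null and 9.60 ± 0.20 in wildtype tissue (SD, n = 5 each).

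**Figure D4:**
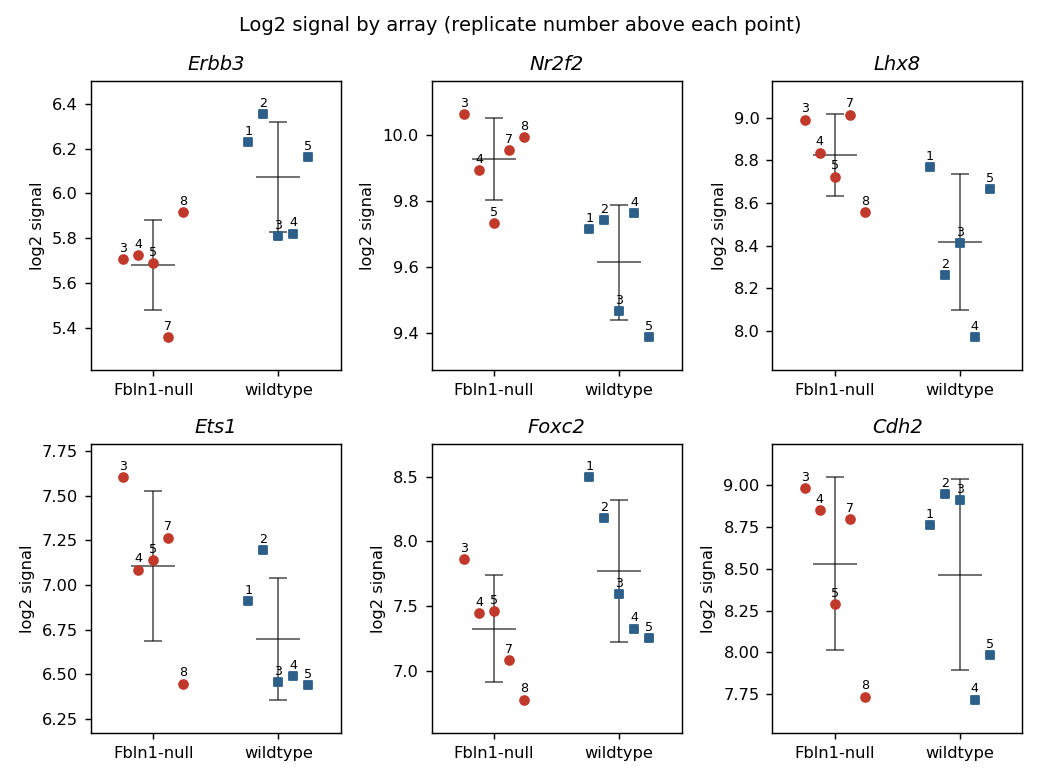
Log2 signal of Erbb3, Nr2f2, Lhx8, Ets1, Foxc2 and Cdh2 on each array (circles Fbln1-null, squares wildtype), with bars at the mean and SD of 5 arrays per genotype and replicate numbers beside the points. In 4 of 5 null arrays Erbb3 is below and Nr2f2 above every wildtype array, and Foxc2 is highest in wildtype replicates 1 and 2.

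The cadherins hold mesenchymal and neural cells together, and neither of the measured ones passed the test. Cdh2, N-cadherin, which the neural tube also expresses, read 8.98, 8.85, 8.29, 8.80 and 7.74 in null replicates 3, 4, 5, 7 and 8, against 8.76, 8.95, 8.91, 7.72 and 7.99 in wildtype replicates 1 to 5. Null replicate 8 and wildtype replicates 4 and 5 formed its low end. The log2 fold change was 0.07 (SE 0.29), and -0.004 (SE 0.19) on its other probe set, with a limma adjusted p of 0.960 and 0.996. Cdh11, a cadherin of mesenchyme, had -0.01 (95% interval -0.43 to 0.42). Cdh6, a cadherin of early crest, was under the filter. Of the neural tube and neuron markers 8 of 9 listed were over the filter, all but Olig2, with summed log2 signals of 57.2 to 62.4 in null and 58.4 to 62.7 in wildtype arrays. Of these markers 3 had a higher and 5 a lower mean in null tissue, from -0.52 for Pax6 to 0.66 for Dcx. Such opposite differences cancel in the sum.

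For 14 of the 18 genes the difference between genotypes was smaller than the SD between embryos of a genotype. The exceptions were Nr2f2, Erbb3, Lhx8 and Ets1. Genotype accounted for a median of 8.46% of a gene's variance over the 10 arrays, against 9.53% over all genes tested, and for 57.2% in Nr2f2, 49.0% in Erbb3 and 43.0% in Lhx8. With 1 of 9 degrees of freedom, genotype would take a mean of 11.1% if arrays did not differ by it. Such a share is skewed, with a median below its mean, so the medians given here cannot be set against that value. The SD within a genotype had a median of 0.33 over the set and 0.27 over all genes.

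Much of this spread was shared, with embryos high or low for many genes at once. Of the 18 genes, null replicates 3, 4, 5, 7 and 8 were above the mean over all arrays for 14, 12, 9, 9 and 4, and wildtype replicates 1 to 5 for 15, 15, 6, 2 and 3. Over all genes tested, 43.5% to 53.3% were above their mean in null arrays and 48.9% to 62.8% in wildtype arrays. The median deviation of the 18 genes was 0.28, 0.17, 0.01, -0.01 and -0.23 in null replicates 3, 4, 5, 7 and 8, against 0.20, 0.22, -0.08, -0.30 and -0.17 in wildtype replicates 1 to 5. Both genotypes thus held embryos at the high and the low end, with overlapping ranges. Wildtype replicate 4 was the lowest of the 10 arrays for 5 genes, and null replicates 7 and 8 and wildtype replicate 5 for 4 each. Null replicate 3 was the highest for 5 genes and wildtype replicate 1 for 4.

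**Figure D5:**
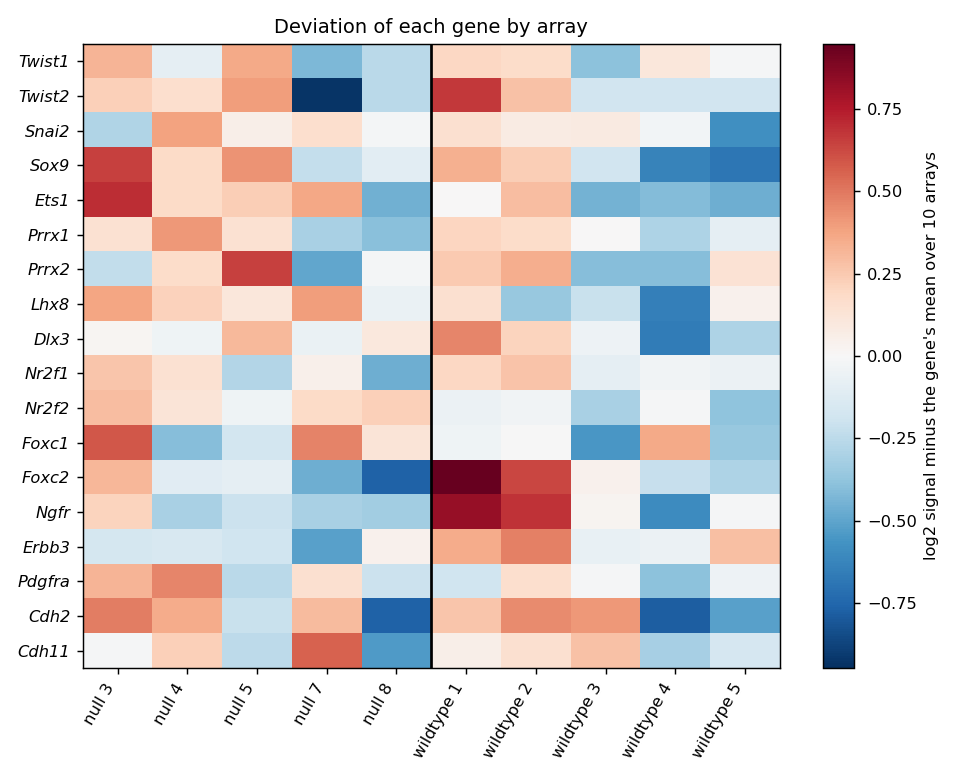
Log2 signal of 18 genes (rows) on 10 arrays (columns, Fbln1-null left of the line, wildtype right) as the deviation from each gene's mean over all arrays. Wildtype replicates 1 and 2 and null replicate 3 are red for most genes, and wildtype replicates 4 and 5 and null replicate 8 are blue.

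Measures of the samples moved along with part of this pattern. The difference between 3' and 5' actin control probe sets, which rises as RNA is shortened, was 2.59, 2.45, 2.85, 2.33 and 2.19 in null replicates 3, 4, 5, 7 and 8, against 2.38, 2.34, 2.27, 1.9997 and 2.30 in wildtype replicates 1 to 5. The same difference for Gapdh was 1.54 to 1.98 in null and 1.68 to 2.32 in wildtype arrays, highest in wildtype replicate 1, so the actin range lay higher and the Gapdh range lower in null arrays. The actin difference was lowest in wildtype replicate 4 and null replicate 8, the arrays with the lowest median deviations. Other arrays did not follow this order. Null replicate 5 had the highest actin difference and a median deviation of 0.01. Wildtype replicates 2 and 5, at 2.34 and 2.30, had median deviations of 0.22 and -0.17. With the actin difference as a covariate, 7 of the 18 genes had a higher mean in null tissue, the median log2 fold change was -0.13, and 0 genes passed adjustment. Nr2f2 and Erbb3 remained at an unadjusted p under 0.05, Foxc2 and Ngfr joined them, and Lhx8 did not. Wildtype replicate 4 also carried Xist signal, at 10.4, against 2.28 to 3.36 on the other 9 arrays, and an Eif2s3y signal, from the Y chromosome, of 2.70, against 8.96 to 9.85, so it was the 1 female sample. Without it the median over the 18 genes was -0.04. Wildtype replicates 1 and 2 stood high for Foxc2, Ngfr and Erbb3, and each was above the mean for 15 of the 18 genes. Without both, 16 of 18 genes had a higher null mean, with a median of 0.24. Leaving out arrays that are high for most of the set lowers the wildtype means, so this shift follows largely from the choice of arrays. In that fit 5 genes were at an unadjusted p under 0.05: Sox9, Ets1, Lhx8, Dlx3 and Nr2f2. That count was 1 without null replicate 3 (Erbb3) or null replicate 7 (Nr2f2), and 0 genes passed adjustment in any of these fits. Shares over all genes were not computed for these fits, so their counts are not read as particular to the set.

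Other genes of the crest network, in a list that holds none of the 32, gave 0 calls as well. The array carried 51 of them and 31 were measured, with 14 higher and 17 lower means in null tissue, a median log2 fold change of -0.01 and 0 past adjustment (limma). At an unadjusted p under 0.05 were 0 higher and 2 lower: Id3, an inhibitor of basic helix-loop-helix factors that keeps crest progenitors undifferentiated, at -0.41 (SE 0.18), and Meis2, a Hox cofactor of crest mesenchyme, at -0.28 (SE 0.12). By role the medians were 0.01 over 11 genes of the neural plate border and crest induction and -0.12 over 8 migration and survival receptors. They were -0.02 over 9 further arch mesenchyme genes and 0.03 over 3 genes of glia and ganglia.

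Summed signals of blood and muscle markers, and the signal of 1 heart marker, overlapped between the genotypes. Erythroid genes had 3 of 6 over the filter, all of them globins, with summed log2 signals of 35.3 to 37.6 in null and 32.7 to 37.3 in wildtype arrays. Skeletal muscle and somite markers had 3 of 6 over it, with sums of 12.4 to 15.8 in null and 13.8 to 15.9 in wildtype arrays. Of the globins 2 had a higher and 1 a lower mean in null tissue, with the largest difference, 0.57 (SE 0.41), for Hba-x. Of the muscle and somite markers 1 had a higher and 2 a lower mean, with the largest difference, -0.82 (SE 0.48), for Pax1. Such differences can be lost in the sums. Of 7 heart markers only Actc1 was measured, at 6.30 to 6.67 in null and 6.16 to 7.04 in wildtype arrays, and of 5 leukocyte markers 0 were. At an adjusted p of 0.05, 0 markers of these or the other cell types passed (limma), and at an unadjusted p under 0.05 stood Pax6, lower, and Esrp1, higher in null tissue.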

How the data were processed

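The table the authors deposited holds log2 signals, and GCRMA is the tool that the submitters' processing notes name. Its version and the genome build are not given in the sources used here. GCRMA models background by probe sequence, makes arrays comparable and presses dim probe sets to a common floor, which compresses fold changes of dim genes. RNA was labelled with a 3' IVT kit, per the labels' protocols. Precision is limited by the number of arrays.

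Of 22690 probe sets, 64 controls were left out, and 20380 of the other 22626 had 1 gene symbol. Probe sets over log2 4 on at least 5 of 10 arrays (9801) were compared between genotypes with limma 3.58.1 in R 4.3.3, two-sided, genotype alone in the model, with Benjamini-Hochberg adjustment over all of them. A gene was tested if its brightest probe set was kept (5910 genes). Values under the filter came from a fit over all 22626. Correlations used 100000 permutations, two-sided, and the pairs were picked after the values were seen.

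All 32 genes were named. Values by array were due for genes at an unadjusted p under 0.05, without overlap, or with the smallest p of their role. Those of Sox10, Foxc2 and Ngfr were added after the values were seen. Members and lists were chosen with earlier results of these data known. Alternatives were other scalings, filters and variance models, a floor, array weights, a replicate block, the actin ratio, averaged probe sets and left-out arrays. The fit was tested on simulated data. Same-numbered arrays were not treated as pairs: their deviations correlated at -0.19, -0.34 and 0.16 for replicates 3, 4 and 5.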

Additional observations from a re-analysis of the deposited data

Results flagged for a closer look

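In 2 of 48 groups of 5 arrays (both genotypes, 23 probe sets over the filter and Fbln1), 1 array stood apart by Dixon's test, a rate near the 1 in 20 that chance gives. Ngfr read 4.34 in null replicate 3, against 3.80 to 3.93 in the other null arrays. Snai2 read 4.55 in wildtype replicate 5, against 5.11 to 5.29 in the other wildtype arrays.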

How the results depend on the processing

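Under all 21 alternatives 0 of the crest and arch genes passed an adjusted p of 0.05 (limma), and Nr2f2, Lhx8 and Ets1 kept a higher and Erbb3, in the 20 where it passed the filter, a lower mean in null tissue. Their adjusted p ranged over 0.259 to 0.537 for Nr2f2, 0.223 to 0.650 for Lhx8, 0.245 to 0.790 for Ets1 and 0.176 to 0.630 for Erbb3. The count at an unadjusted p under 0.05, 3 of 18, was 5 without wildtype replicates 1 and 2 and 1 to 4 with 1 array left out. The median log2 fold change was 0.34 with the replicate block, which uses only replicates 3, 4 and 5 of each genotype, and -0.04 to 0.14 with 1 array left out. With the block 17 of 18 genes had a higher null mean, and Twist2, Sox9, Ets1 (0.82) and Lhx8 were at an unadjusted p under 0.05 in limma, while Nr2f2 and Erbb3 (-0.22) were not. Shares of all genes by direction or unadjusted p were not computed for the alternatives, so these counts are not read as particular to the set. Only 3 of the 6 arrays in the block correlated best with their own number, so the numbers are not taken as pairs. Cdh2 had -0.19 with the actin probe ratio, 0.50 with the replicate block, 0.33 without wildtype replicates 1 and 2, and -0.12 to 0.27 with 1 array left out. Over all probe sets the count past an adjusted p of 0.05, 2, was 1 without a filter, 34 with the log2 6 filter or array weights and 8 with a trended, robust variance. It was 0 with the replicate block, the actin ratio or without wildtype replicates 1 and 2. With 1 array left out it was 0 to 7: 0 when null replicate 5, 7 or 8 or wildtype replicate 1, 2 or 4 was dropped, 1 without wildtype replicate 5 and 7 without wildtype replicate 3. The Fbln1 log2 fold change of -1.88 (adjusted p = 0.0715 over all 22626 probe sets) was -0.58 (adjusted p = 0.468) with values under log2 4 raised to 4, since its null arrays lie near the floor, -1.84 (adjusted p = 0.0473) with median centring and -2.06 to -1.74 with 1 array left out, with an adjusted p of 0.0173 without wildtype replicate 3. The causes of the other differences were not tested.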
